A study of Mus musculus with 4 samples.

Results

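The MHC class II genes and their companions were followed in mouse peritoneal exudate cells with and without C/EBPε, the transcription factor of late granulocyte maturation that Cebpe encodes. The genes were H2-Aa, H2-Ab1, H2-Eb1, H2-Ea, H2-DMa, H2-DMb1, H2-Oa, H2-Ob, the invariant chain gene Cd74 and the co-activator gene Ciita. They were chosen by name, as probe sets whose platform annotation gave exactly 1 gene symbol equal to one of these 10. All 10 had a probe set, 17 probe sets in all, of 13069 probe sets and 6137 named genes.

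The arrays came from Cebpe-deficient (-/-) and from wild-type (+/+) mice, aged 6 to 8 weeks, of a cross of 129/SvEv with NIH Black Swiss. All mice had received 2 ml of 4% thioglycollate broth into the peritoneal cavity, and cells were washed out 24 h later. Per the labels, 4 mice of each genotype were used, and exudates of both genotypes held about 30% monocytes, 60% neutrophils and 7 to 10% lymphocytes. Each genotype had 1 array on each of 2 Affymetrix array types, named A and B here and carrying different probes, so no difference has a replicate check and no test was possible.

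MHC class II molecules present peptides from endosomes to CD4 T cells. An alpha and a beta chain, H2-Aa with H2-Ab1 (I-A) or H2-Ea with H2-Eb1 (I-E), pair in the endoplasmic reticulum, where the invariant chain, Cd74, fills the groove and directs them to endosomes. There the DM dimer of H2-DMa and H2-DMb1 exchanges the remnant of Cd74 for peptide, and the DO dimer of H2-Oa and H2-Ob, found mainly in B cells, restrains DM. Ciita is the co-activator without which these genes are hardly transcribed. It does not bind DNA itself and is held at class II promoters by factors on the X box and by NF-Y on the Y box. B cells, dendritic cells and macrophages carry class II molecules, macrophages more so after interferon gamma, while resting neutrophils carry little.

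The promoter sequences of 5 members are shown because factors that hold Ciita are known to bind a layout of the kind they share. RefSeq (GRCm38.p6) held 7 windows for 6 of the members, each 250 bases before to 50 after a gene start. An ATTGG, the Y box core as read on the gene's strand, was searched on both strands and lay in 6 of the 7 windows, as in 37.4% of all 32851 windows. GNAAC, the start of an X box core, followed 24 to 34 bases later by ATTGG lay on the gene's strand in 5 windows. Searched on both strands, a wider search than for the members, the pair lay in 1.90% of all windows. This pair and its spacing were chosen after these promoters had been read. In the sequences the capitals mark the pair. The windows are chr17:34287774-34288073 on the minus strand, and on the plus strand chr17:34305617-34305916, chr17:34152941-34153240, chr17:34238655-34238954 and chr17:34092129-34092428.
H2-Aa: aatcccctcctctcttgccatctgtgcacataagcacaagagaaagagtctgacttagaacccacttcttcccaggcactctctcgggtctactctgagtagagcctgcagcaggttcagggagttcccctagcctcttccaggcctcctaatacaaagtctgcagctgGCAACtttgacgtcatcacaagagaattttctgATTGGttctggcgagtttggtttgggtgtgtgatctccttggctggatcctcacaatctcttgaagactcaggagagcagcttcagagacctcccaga
H2-Eb1: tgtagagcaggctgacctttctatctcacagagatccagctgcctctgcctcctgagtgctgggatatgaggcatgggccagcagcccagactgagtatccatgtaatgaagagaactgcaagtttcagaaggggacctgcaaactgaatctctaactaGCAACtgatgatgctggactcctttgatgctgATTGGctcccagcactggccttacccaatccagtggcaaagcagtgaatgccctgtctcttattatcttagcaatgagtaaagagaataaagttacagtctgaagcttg
H2-DMb1: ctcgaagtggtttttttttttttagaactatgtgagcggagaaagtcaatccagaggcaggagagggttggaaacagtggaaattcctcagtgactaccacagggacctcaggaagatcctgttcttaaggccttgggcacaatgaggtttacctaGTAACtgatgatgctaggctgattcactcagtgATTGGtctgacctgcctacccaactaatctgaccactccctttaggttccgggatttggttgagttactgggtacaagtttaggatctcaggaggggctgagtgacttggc
H2-Ob: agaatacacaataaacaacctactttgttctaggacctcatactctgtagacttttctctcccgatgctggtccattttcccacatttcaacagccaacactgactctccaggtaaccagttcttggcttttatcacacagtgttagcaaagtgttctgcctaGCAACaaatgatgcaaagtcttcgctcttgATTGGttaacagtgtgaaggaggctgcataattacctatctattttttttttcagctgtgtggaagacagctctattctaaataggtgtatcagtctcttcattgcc
H2-Oa: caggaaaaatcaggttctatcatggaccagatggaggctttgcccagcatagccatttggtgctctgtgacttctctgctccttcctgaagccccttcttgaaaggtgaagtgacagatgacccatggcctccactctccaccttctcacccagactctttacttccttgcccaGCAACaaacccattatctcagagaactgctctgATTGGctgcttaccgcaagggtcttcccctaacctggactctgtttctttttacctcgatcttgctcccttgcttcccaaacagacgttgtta
From the first base of GNAAC to the first base of ATTGG there were 33 bases in H2-Aa, H2-DMb1 and H2-Oa, 32 in H2-Eb1 and 30 in H2-Ob. Neither window of H2-DMa held the pair on the gene's strand. The layout was thus present in members with bright signal on these arrays and in members near or below the floor.

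No class II gene with a measured ratio differed by 2-fold or more between the genotypes. Signal was bright in both genotypes for the I-A chains, for H2-Eb1 and for Cd74. It was a little lower in deficient cells for H2-Ab1, for Cd74 and by 1 of the 2 probe sets of H2-Eb1. It was nearly equal for H2-Aa and H2-DMb1. Under loess scaling Cd74 too was nearly equal, with a log2 ratio of -0.05. Scaling to the bacterial controls put Cd74, H2-DMb1 and most H2-Aa probe sets slightly higher in deficient cells instead. Signal was near or below the floor for H2-Ea, H2-DMa, H2-Oa, H2-Ob and Ciita. The floor, below which a value was not read as a level, was the median intensity of the array type, 1036 on A and 690.1 on B. Of the 10 genes, 5 were above it in both genotypes and had a ratio, 3 were above it in 1 genotype and had only a bound, and 2 were below it in both.

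**Figure D1:**
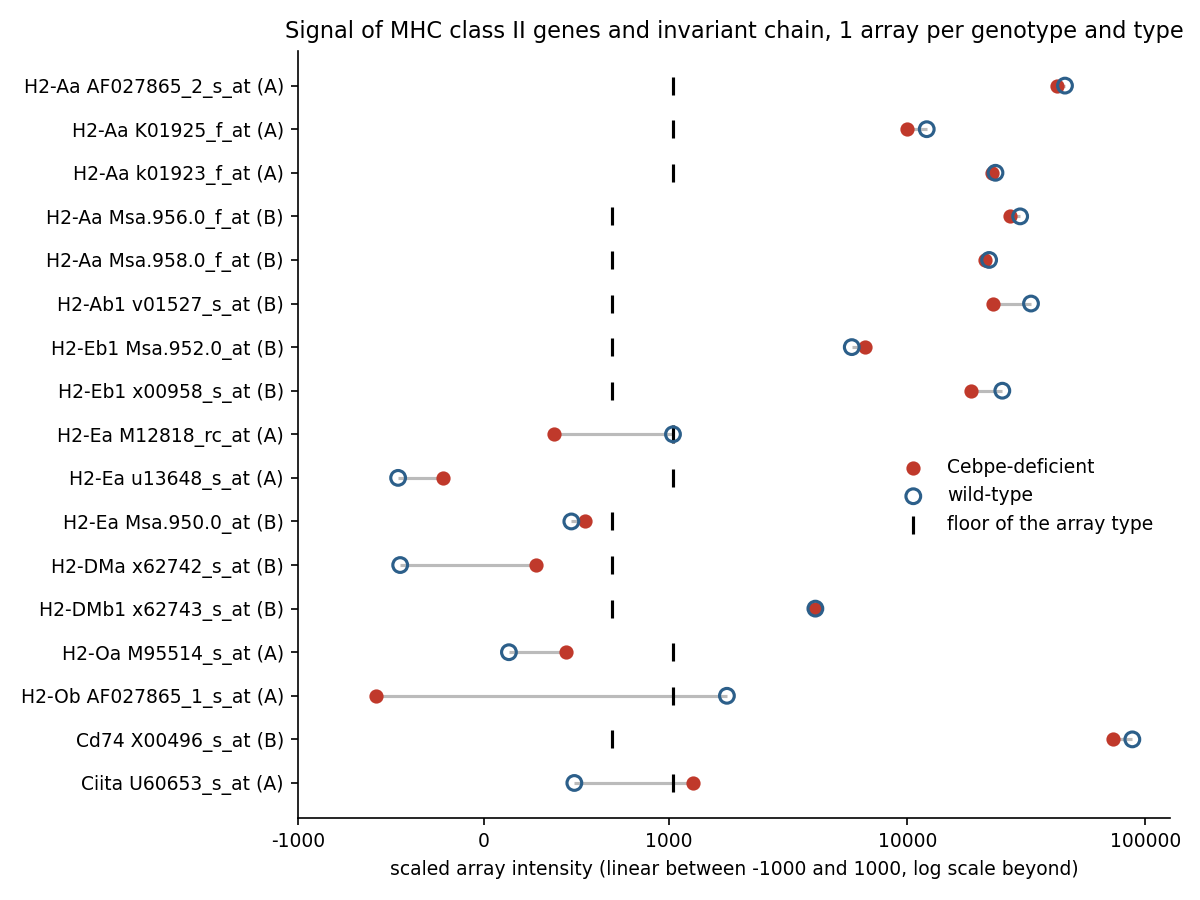
Scaled intensity of the 17 member probe sets, with the array type in brackets, in Cebpe-deficient (filled) and wild-type cells (open); the tick in each row is the floor of its array type. The axis is linear between -1000 and 1000 and logarithmic beyond. The 10 probe sets of H2-Aa, H2-Ab1, H2-Eb1, H2-DMb1 and Cd74 lie right of the floor in both genotypes, and the other 7 near or left of it.

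H2-Aa, the I-A alpha chain, was read by 5 probe sets. On A, AF027865_2_s_at had an intensity of 42481 in deficient and 45947 in wild-type cells, k01923_f_at had 22797 in deficient and 23465 in wild-type cells, and K01925_f_at had 9972 in deficient and 12075 in wild-type cells. On B, the probe set for target V00832 had 26957 in deficient and 29798 in wild-type cells, and that for target K01923 had 21211 in deficient and 22078 in wild-type cells. All 5 were lower in deficient cells, by at most 1.21-fold. The log2 ratios, deficient over wild-type, were -0.11, -0.04 and -0.28 on A and -0.14 and -0.06 on B. Their mean was -0.13 ± 0.09 (SD over 5 probe sets, which share the RNA of 1 array per genotype and type and are no replicates). Target K01923 had a probe set on each array type, and their ratios, -0.04 on A and -0.06 on B, were close. Other probe sets of a gene disagreed more: over 424 genes with repeat probe sets the SD within a gene was 0.38 log2 units, and 0.23 among 100 genes with signal of 10 floors or more. That SD holds differences between probe sets of a gene and no spread between mice. Probe sets of 1 array type share the same arrays, so error common to a whole array is not in their spread. Under scaling to the bacterial controls 4 of the 5 ratios turned above 0, as did that of K01923 on A under equal medians and on B under quantile and loess scaling, so the direction for H2-Aa depends on the scaling.

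H2-Ab1, the I-A beta chain, had an intensity of 22881 in deficient and 33096 in wild-type cells by its 1 probe set, v01527_s_at on B. This was the largest difference among members with a ratio, 1.45-fold lower in deficient cells, a log2 ratio of -0.53. It was below 0 under every scaling tried, between -0.71 and -0.20. The partner chain H2-Aa differed by at most 1.21-fold, and no test of the gap between the chains was possible.

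H2-Eb1, the I-E beta chain, had probe sets on B that pointed opposite ways. The brighter one, x00958_s_at, had 18513 in deficient and 25082 in wild-type cells, a log2 ratio of -0.44. The other, for target X00702, had 6620 in deficient and 5853 in wild-type cells, a log2 ratio of 0.18. The 0.62 log2 units between them exceed the ratio of either, and their mean was -0.13. Neither sign changed under another scaling.

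H2-Ea, the partner of H2-Eb1, was near or below the floor by each of its 3 probe sets. On A, M12818_rc_at had 377 in deficient and 1039 in wild-type cells, the wild-type value lying at the floor, and u13648_s_at had -219 in deficient and -462 in wild-type cells. On B, the probe set for target V00834 had 545 in deficient and 473 in wild-type cells. No probe set of the I-E alpha chain was thus clearly above the floor in either genotype. RefSeq lists H2-Ea of the C57BL/6J genome as a transcribed pseudogene. Mice of the b haplotype, to which C57BL/6 and 129 strains belong, are known to lack H2-Ea transcripts.

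Class II genes are among the most variable between mouse strains, and no probe sequences were available to match with an allele. The labels give a mixed background, and nothing in them states the H2 haplotypes of the mice. For H2-Aa, H2-Ab1, H2-Eb1 and H2-DMb1 a difference in alleles between the groups of mice and a difference in RNA level therefore cannot be told apart on these arrays. Cd74 lies on chromosome 18 and the H2 genes on chromosome 17. The labels do not give the Cd74 alleles of the mice either. The 4 probe sets with the family suffix _f, all of H2-Aa, may also read several alleles or related genes.

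Cd74, the invariant chain, had an intensity of 73213 in deficient and 88147 in wild-type cells by X00496_s_at on B. The value in wild-type cells was the highest of any non-control probe set on its array. The ratio was 1.20-fold lower in deficient cells, a log2 ratio of -0.27 against a repeat SD of 0.23 at that brightness. It lay between -0.44 under equal medians and 0.06 under scaling to the bacterial controls, and at -0.05 under loess scaling. Whether signal this bright was compressed was not tested.

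H2-DMb1, the beta chain of DM, had 4120 in deficient and 4117 in wild-type cells, a log2 ratio of 0.00. That value moved with the scaling, between -0.17 under equal medians and 0.33 under bacterial-control scaling. H2-DMa, its partner, had 281 in deficient and -451 in wild-type cells and was below the floor in both. Levels of the 2 chains cannot be compared, since they come from different probe sets.

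Of the DO chains, H2-Ob had -583 in deficient and 1750 in wild-type cells, which is at least 1.69-fold lower in deficient cells against the floor of A. H2-Oa had 445 in deficient and 136 in wild-type cells, both below the floor. Ciita had 1260 in deficient and 489 in wild-type cells, at least 1.22-fold higher in deficient cells. These values lie within the range where the choice of floor decides what is read. With the floor at the 30th percentile of the array type, 255.9 on A and 35.0 on B, H2-DMa was at least 8.03-fold higher, H2-Ob at least 6.84-fold lower and Ciita, by ratio, 2.58-fold higher. H2-Oa was then at least 1.74-fold higher. The H2-Ea probe sets pointed opposite ways at that floor, with log2 ratios of -1.46 by M12818_rc_at and 0.20 by the one for target V00834, by which the gene was read. At the 70th percentile none of H2-Ea, H2-DMa, H2-Oa, H2-Ob and Ciita had a ratio or a bound.

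**Figure D2:**
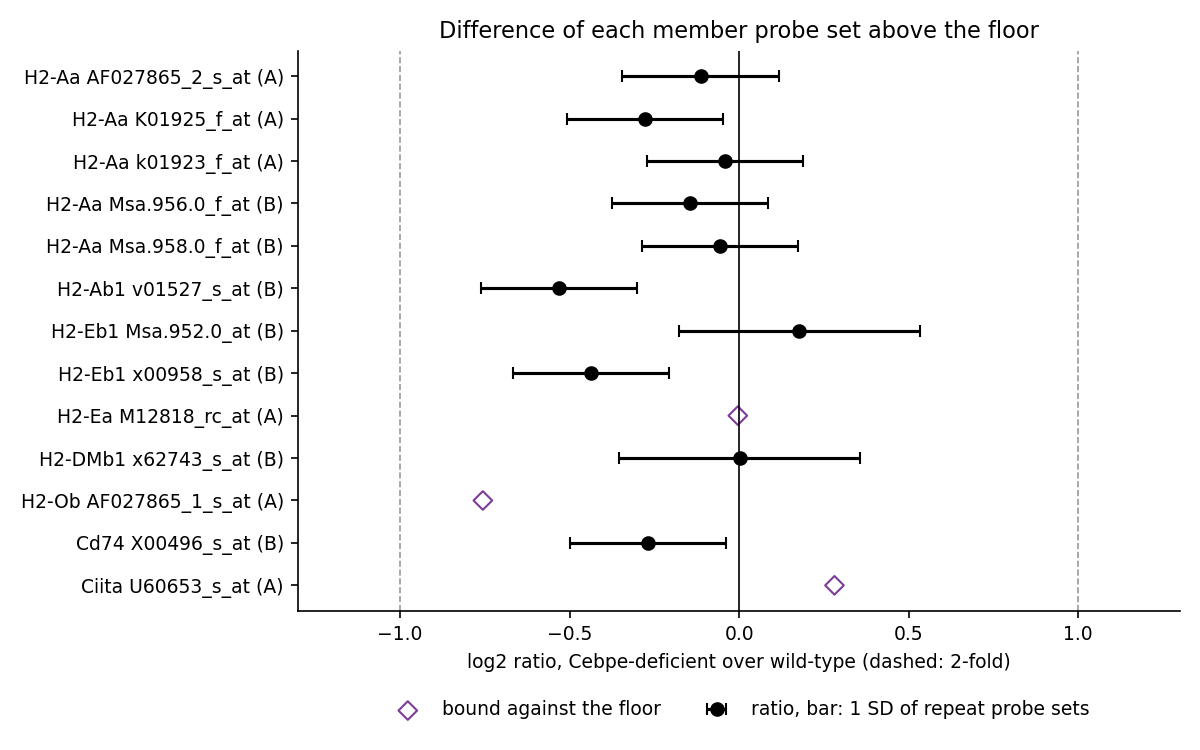
Log2 ratio, Cebpe-deficient over wild-type, of the 13 member probe sets above the floor in at least 1 genotype. Circles are ratios with a bar of 1 SD of repeat probe sets of similar brightness, diamonds are bounds, and the dashed lines mark 2-fold. No point reaches 2-fold, and the ratios run from -0.53 for H2-Ab1 to 0.18 for one probe set of H2-Eb1.

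Read by their brightest probe set, 4 of the 5 measured members were below 0 and H2-DMb1 lay at 0.00. Their median was -0.27 log2 units, 1.20-fold lower in deficient cells, against a median of 0.01 over 3131 measured genes, of which 49.0% were below 0. With the 3 bounded members at their bound the median was -0.19. Without bounds and with the mean over the probe sets of each gene it was -0.13. By ratio, 0 of 5 members were past 2-fold, against 6.68% of all measured genes, 5.7% of probe sets on A and 7.96% on B. By bound, 0 of 3 were past 2-fold, against 19.1% of 618 genes with only a bound. Beyond the repeat SD over all genes, 0.38, lay 2 of the 5, H2-Ab1 and H2-Eb1, and 0 lay beyond 2 times it. The repeat SD at their own brightness was 0.23 for each of them but H2-DMb1. Beyond the SD at their own brightness lay 3 of the 5, H2-Ab1, H2-Eb1 and Cd74, and beyond 2 times it 1, H2-Ab1. The share of all genes beyond these SDs was not counted, so the counts are no result about the members. On B, 33.1% of the 472 probe sets with signal of 20 floors or more lay at or below the ratio of Cd74.

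Most of the bright members were on B, where bright probe sets as a whole were lower in deficient cells. Among the 472 probe sets on B with signal of 20 floors or more, 64.8% were below 0, the median was -0.15 and the quartiles were -0.37 and 0.15. Cd74 at -0.27 and the H2-Aa probe sets on B at -0.14 and -0.06 lay between those quartiles. H2-Ab1 lay lower than the lower quartile, with 15.3% of these probe sets at or below its ratio, and so did x00958_s_at of H2-Eb1, with 21.8%. On A, the 241 probe sets of the same brightness had a median of 0.02 and quartiles of -0.26 and 0.19, and both H2-Aa probe sets that bright lay between them. Loess scaling, which removes such a trend with signal, left a median of -0.09 over the members. Under it H2-Ab1 stood at -0.41, H2-Aa by its brightest probe set at -0.09, H2-DMb1 at -0.06 and Cd74 at -0.05. H2-Eb1 stood at -0.34 by its brighter probe set and at 0.13 by the other.

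**Figure D3:**
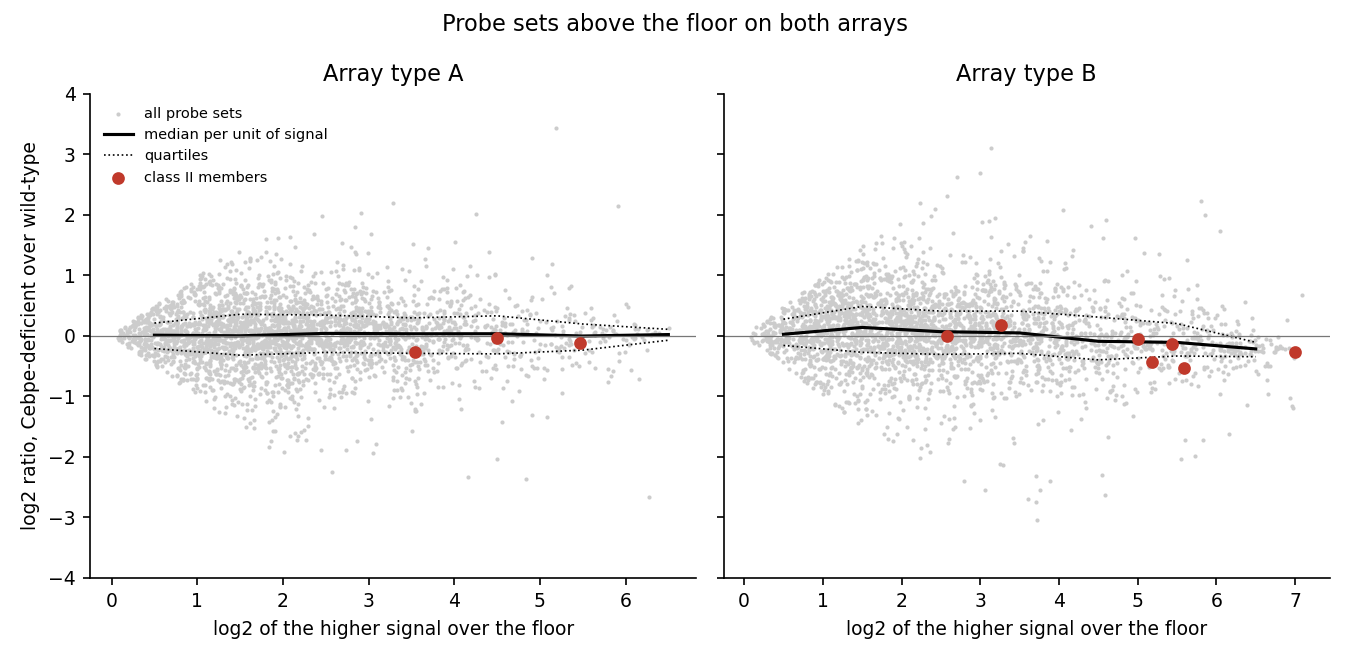
Log2 ratio, Cebpe-deficient over wild-type, against the log2 of the higher signal over the floor, for all probe sets above the floor in both genotypes (grey) and the members (red), on A (left) and B (right); lines are the median and quartiles per unit of signal. On B the median falls below 0 at high signal, where H2-Ab1, Cd74 and the brighter H2-Eb1 probe set lie.

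The sign of the members' median turned under 1 of the scalings tried. It stayed below 0 without scaling and under equal medians, quantile and loess scaling, between -0.44 and -0.09. It was 0.06 under scaling to the bacterial controls, which shifted the overall probe set median by 0.16 log2 units on A and by 0.32 on B. Set against the median that all genes then had, 0.21, the members were at -0.15.

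**Figure D4:**
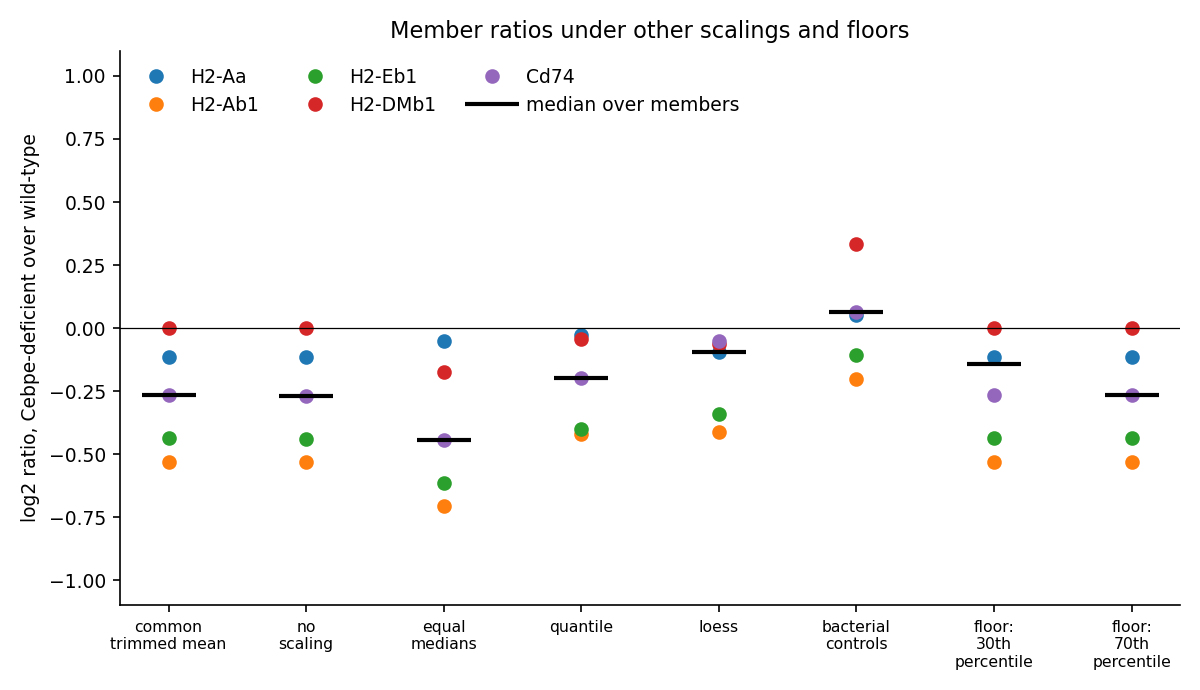
Log2 ratio, Cebpe-deficient over wild-type, of 5 members, each by 1 probe set, and the median over all members with a ratio (black bar), under 8 scalings and floors. H2-Ab1 and H2-Eb1, the latter by its brighter probe set, stay below 0 throughout. The other H2-Eb1 probe set, not shown, was above 0 throughout, between 0.003 and 0.51. The median crosses 0 only with bacterial controls, at 0.06.

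Of measured genes that act on class II transcription, 0 of 7 were past 2-fold by ratio, against 6.68% of all measured genes. Of 21 regulators listed, 15 had a probe set and 7 a ratio, 3 below and 4 above 0, with a median of 0.15 that stayed above 0 under each alternative but B alone, where no median was taken as Smarca4, at -0.14, was the only one measured. The lowest was Irf1, an interferon-induced activator of Ciita, at -0.49, and the highest Crebbp, a histone acetyltransferase, at 0.30. Irf8 and the myeloid factor Spi1 (PU.1) stood at 0.16 and 0.15. Creb1, a factor of the X2 box, had 1906 in deficient and 448 in wild-type cells, at least 2.76-fold higher, and a second Creb1 probe set gave no ratio. The NF-Y subunit genes Nfya and Nfyb passed the floor in deficient cells alone, with log2 bounds of 0.54 and 0.04.

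Some chains of receptors whose ligands are known to raise or lower class II in macrophages had ratios of larger size than any measured class II gene, with no test of the difference. Ifngr1, the ligand-binding chain of the interferon gamma receptor, had 13382 in deficient and 4894 in wild-type cells, a log2 ratio of 1.45. Il10ra, a chain of the interleukin 10 receptor, had 6140 in deficient and 2947 in wild-type cells, at 1.06. Of the partner chains, Il10rb stood at 0.31, and Ifngr2 passed the floor in deficient cells alone, with a log2 bound of 0.02. Il4ra stood at -0.97, the lowest of the list. Of 8 measured genes of interferon gamma and related receptor signalling, Ifngr1 and Il10ra were past 2-fold higher and 0 past 2-fold lower. Over all measured genes 6.68% were past 2-fold in either direction. In this list 4 were below and 4 above 0, and the median was -0.18, which turned to 0.08 with the lower and with the higher floor. Ifng itself was below the floor in both genotypes, at -45 in deficient and -400 in wild-type cells.

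Of 26 genes of class II peptide loading and turnover, 18 were measured, with a median of 0.04, 7 below and 11 above 0. Of the proteases that cut the invariant chain, Ctss (cathepsin S) had 71725 in deficient and 63608 in wild-type cells, at 0.17, Lgmn (legumain) stood at 0.05, and Ctsl (cathepsin L) was lower in deficient cells, at -0.51 and -0.52 by its probe sets. By the probe sets read, the tetraspanin gene Cd9 was lowest at -0.89, and the tetraspanin gene Cd37 highest and the only one past 2-fold. Cd37 had 18814 in deficient and 8494 in wild-type cells, at 1.15. The probe sets of Ctsc (cathepsin C) disagreed. The brighter one, by which it was read, stood at 0.10. The other had 4169 in deficient and 561 in wild-type cells, at least 4.02-fold higher.

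Among costimulation genes, 5 of 15 were measured, with a median of 0.05, which turned to -0.01 under loess scaling. Cd86, a ligand of CD28 on T cells, stood at 0.00 and the maturation marker Cd83 at 0.18, while Cd80, the other CD28 ligand, reached the floor in wild-type cells alone and Cd40 in neither genotype. Past 2-fold were the adhesion gene Cd48, with 33972 in deficient and 14268 in wild-type cells, at 1.25, and Cd24a, with 7858 in deficient and 32389 in wild-type cells, at -2.04.

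Of 32 listed genes of MHC class I and its peptide loading, 13 were measured. Their median was -0.22, with 10 below and 3 above 0. This median turned to 0.08 under bacterial-control scaling. H2-D1 stood at -0.02, 0.03 and -0.10 by its measured probe sets. H2-K1 stood at -0.16 and 0.32 by probe sets on the same array type, a disagreement like that of H2-Eb1. B2m, the light chain of class I, was at -0.25, and the class I gene H2-Q10 at -0.58. The only member past 2-fold was the immunoproteasome gene Psmb10, with 1483 in deficient and 4679 in wild-type cells, at -1.66, and the highest was H2-M2 at 0.78. The peptide transporter genes Tap1 and Tap2 passed the floor in wild-type cells alone, with log2 bounds of -0.63 and -0.18.

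Genes that neighbour the class II genes in the RefSeq gene order, up to 40 on either side, would travel with the same H2 alleles. Of 88 such genes 30 had a probe set and 21 a ratio, with 10 below and 11 above 0 and a median of 0.02, which turned to -0.01 under loess scaling and with the lower floor, and to -0.16 on B alone. Past 2-fold were Daxx, a histone chaperone gene, with 2241 in deficient and 8619 in wild-type cells, at -1.94, and by bound Rxrb, at least 12.0-fold higher in deficient cells against a wild-type reading of -3287, and Kank3, at least 2.02-fold lower. The highest ratio was that of Wdr46, at 0.87. The immunoproteasome gene Psmb8, which lies among the class II genes, stood at -0.84 on B and -0.13 on A.

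**Figure D5:**
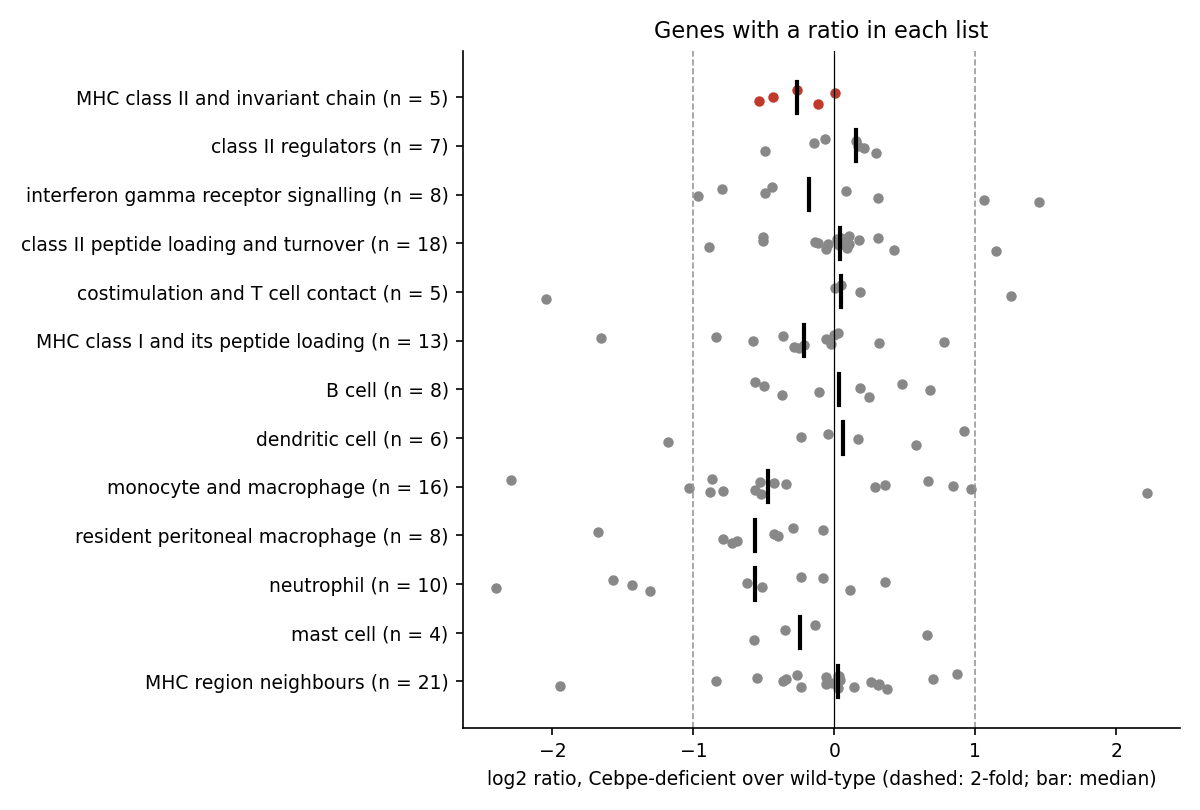
Log2 ratios, Cebpe-deficient over wild-type, of the genes with a ratio in the class II list (red) and in each companion or marker list with at least 4 such genes (grey), 1 point a gene; bars are medians and dashed lines mark 2-fold. The class II genes lie between -0.53 and 0.00, with 0 of 5 past 2-fold, against 6.68% of all measured genes. The regulator, B cell and mast cell lists also hold no ratio past 2-fold, and each other list shown holds at least 1.

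In a mixed exudate, fewer class II-bearing cells and less class II RNA per cell cannot be told apart. Markers of B cells and dendritic cells had medians close to 0. Of 14 B cell markers with a probe set 8 had a ratio, 4 below and 4 above 0, with a median of 0.03 that turned below 0 under equal medians, quantile and loess scaling and with the mean over probe sets. Their summed intensity was 43485 in deficient and 52162 in wild-type cells on A, and 14883 in deficient and 16106 in wild-type cells on B. Pou2af1 was lowest at -0.56 and Cr2 highest at 0.68, while Cd72, itself a B cell surface gene, was at least 2.95-fold lower by bound. With bounded genes at their bound the B cell median was -0.11. By their measured probe sets Ighm stood at -0.50, -0.36 and -0.49, Cd79a at -0.37 and Ms4a1 at -0.30 and 0.48. Ebf1 and Fcer2a read below 0 in both genotypes. Of 11 dendritic cell markers 6 had a ratio, with a median of 0.06, or -0.14 without suffixed probe sets, and summed intensities of 24609 in deficient and 23982 in wild-type cells on A, and 993.1 in deficient and 252.0 in wild-type cells on B. Fscn1 was lowest at -1.18 and Zbtb46 highest at 0.92, and Cd8a and Irf4 read below 0 in both genotypes.

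Of 18 monocyte and macrophage markers 16 had a ratio, 10 below and 6 above 0, with a median of -0.47 that turned to 0.06 on A alone. The summed intensity of these markers was 148356 in deficient and 154870 in wild-type cells on A, and 302142 in deficient and 325818 in wild-type cells on B. By the probe sets read, Mrc1 at -2.30 and Cd14 at -1.03 were past 2-fold lower and Apoe at 2.22 past 2-fold higher. A second Apoe probe set, on A, stood at 3.43. Msr1 stood at -0.87 by the probe set read and at -1.58 by another. Resident peritoneal macrophage markers were below 0 in 8 of 8 cases, with a median of -0.56 and a range from -1.67 for Serpinb2 to -0.08 for Tgfb2, and this median was below 0 under each alternative. Their summed intensity was 36626 in deficient and 54365 in wild-type cells on A, and 18770 in deficient and 35219 in wild-type cells on B. The part of these cell types in the class II differences was not tested.

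Neutrophil markers had a median of -0.57 over 10 measured genes, from -2.40 for Il1r2 to 0.36 for Mpo. It was -1.31 with the floor at percentile 30 and -0.24 on A alone. The other genes of that list past 2-fold were Ngp, Ly6g and Csf3r at -1.57, -1.44 and -1.31, and, by bound, Mxd1 and Cxcr2 at -3.05 and -1.03. Mast cell markers had a median of -0.25 over 4 genes, from -0.57 for Kit to 0.65 for Mcpt4. T and NK cell markers had 2 measured genes, Gzma at -0.66 and Cd247 at -0.19, with Cd4 below 0 in both genotypes, and the eosinophil list had 1, Ccr3 at -1.92. No probe set was annotated to Cebpe alone, so the genotype labels could not be checked on the targeted gene. On type B the deficient sample carries its genotype in the title and not in the RNA source field.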

How the data were processed

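Total RNA of peritoneal exudate cells was hybridised to 4 one-colour Affymetrix arrays, and groups were taken from the sample titles. The values as deposited are intensities, linear and whole, with 1 per probe set and array, of which 20.6% to 29.3% lie below 0. No source used here names the software, background correction or scaling of the authors. Gene names came from the platform annotation, in which 7561 probe sets had 1 symbol, 224 several and 5394 none. A gene ID of RefSeq (GRCm38.p6) was found for 7544 of the named ones, and 0 symbols changed.

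Both arrays of a type were brought to one mean over non-control probe sets, trimmed by 2% at each end, with factors of 0.9998 to 1.0002. Their scaled values had the floor as median. Log2 ratios are deficient over wild-type, a value above the floor on 1 array gave a bound, and of several probe sets of a gene the measured one highest over the floor was taken. Intensities are printed as deposited. On A 2949 and on B 2953 probe sets were above the floor on both arrays, and the arrays of a type had a Spearman rho of 0.929 on A and 0.921 on B. The number of arrays, 1 per genotype and type, limits the precision, and no p-value is given. Whether the cells of several mice were pooled is not given in full in the labels.

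The members, lists, markers and the rule for named genes (all members, the highest and lowest gene of each list and those past 2-fold) were chosen with earlier results of these data known. A few other list genes are named for their role, chosen after their values were seen. The procedure was tested on simulated arrays. Alternatives were other scalings (none, equal medians, quantile, loess with span 0.3, bacterial controls), floors at percentiles 30 and 70, 1.5-fold and 3-fold, no suffixed probe sets (_f, _g, _r, _i), means in place of the brightest probe set or of the median, and 1 array type at a time. Computations used Python 3.11.15 with pandas 2.3.3, numpy 2.4.6, statsmodels 0.14.6, matplotlib 3.10.9 and scipy 1.17.1.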

Additional observations from a re-analysis of the deposited data

How the results depend on the processing

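No paired analysis was possible because each genotype had 1 array per array type. Leaving out an array would leave no ratio. The members' median lay between -0.44 and 0.06 over 12 alternatives and turned above 0 with bacterial controls only. Each value was within the repeat SD of 0.38 of the main value, -0.27, but that SD is larger than the size of the main value itself. On A alone the median rested on H2-Aa only. By ratio, the count of members past 2-fold stayed at 0 in 11 of 12 alternatives. No member probe set was past 2-fold in the main setting. The count thus could not rise at 3-fold, with the higher floor, without suffixed probe sets or on 1 array type alone. With the floor at percentile 30 it was 1 by ratio (Ciita) and 2 by bound (H2-Ob and H2-DMa), and at 1.5-fold it was 1 by bound (H2-Ob). For all probe sets, counts higher and lower were 75 and 93 on A and 125 and 110 on B. They were 217 and 266 on A and 445 and 363 on B with the floor at percentile 30, and 35 and 26 on A and 41 and 40 on B with the floor at percentile 70. They were 326 and 310 on A and 426 and 347 on B at 1.5-fold, and 12 and 18 on A and 26 and 31 on B at 3-fold. Bacterial controls gave 134 and 61 on A and 320 and 57 on B, and equal medians gave 170 lower on B. Of the list medians, the neutrophil one moved to -1.31 with the floor at percentile 30 and the macrophage one to 0.063 on A alone. Fewer or more genes pass another floor by construction. The causes of the other moves were not tested. Signal near background limits H2-Ea, H2-DMa, H2-Oa, H2-Ob and Ciita.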

Other observations

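Other H2 genes outside the lists were near or below the floor, chosen after their values were seen. H2-M1, a class Ib gene, had an intensity of 992 in deficient and 1113 in wild-type cells on B, a log2 ratio of -0.17. H2-Q8 had 218 in deficient and 302 in wild-type cells on B, and H2-Bl had 92 in deficient and 34 in wild-type cells on A.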
